A study of Mus musculus with 12 samples.

Results

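Pleiotrophin, midkine, the 4 syndecans, glypican 1 and the receptor PTPRZ1 were followed through PRMT1 knockdown in differentiating 3T3-L1 cells. Members were the rows of the deposited count and FPKM tables whose gene name equals Ptn, Mdk, Sdc1, Sdc2, Sdc3, Sdc4, Gpc1 or Ptprz1, which gave 8 of the 39423 genes listed. The members were chosen by name with their counts and FPKM in all 4 conditions already seen, so their levels and differences are given as a description. 3T3-L1 is a mouse preadipocyte line. Cells received control siRNA (siCtrl, labelled NC) or siRNA against PRMT1 (siPRMT1) at confluence and were induced 2 days later with DMI, which holds dexamethasone, 3-isobutyl-1-methylxanthine and insulin. mRNA was sequenced 24 h (day 1) and 72 h (day 3) after DMI, with 3 libraries in each of the 4 groups. All groups, siCtrl included, had been transfected and induced, and none was left without DMI. The labels do not say that the 3 libraries of a group came from separate cultures, so intervals and p-values measure the spread between these libraries, which may be technical.

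Pleiotrophin and midkine are related secreted growth factors that bind the sugar chains of proteoglycans at the cell surface and in the matrix. Syndecans are transmembrane proteoglycans, and glypican 1 is held at the membrane by a lipid anchor. Their heparan sulfate chains capture both ligands as well as fibroblast growth factors, while the phosphatase PTPRZ1 is a signalling receptor for pleiotrophin and midkine. In adipose tissue pleiotrophin is known as a product of preadipocytes, and syndecan 4 is known for its place in focal adhesions.

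The libraries held 15116462 to 42357137 counts on genes. Prmt1 itself was lower in siPRMT1 cells, at 41.3 ± 2.61 against 85.8 ± 4.71 FPKM (SD, n = 3) on day 1 and 67.4 ± 4.92 against 124 ± 15.1 FPKM on day 3. FPKM is the count of a gene per 1000 bases of its length and per 1000000 counts of its library, and CPM leaves out the length. The summed level of 6 adipocyte markers ran from 144 to 149 FPKM in siCtrl and from 109 to 123 FPKM in siPRMT1 cells on day 1, and from 2068 to 2239 and from 1627 to 1843 FPKM on day 3. The summed level of 6 fibroblast and preadipocyte markers came to 1504 to 1657 FPKM (siCtrl) and 1420 to 1519 FPKM (siPRMT1) on day 1, and to 691 to 739 and 859 to 972 FPKM on day 3. Markers of macrophages, endothelial cells and glia or neurons summed to at most 2.4, 0.88 and 0.45 FPKM. Of these, Adgre1, Ptprc, Kdr, Olig2, Rbfox3 and Sox10 had a mean of 3 counts or fewer over the 12 libraries, and the others had more. The epithelial sum was at most 0.12 FPKM on day 1 and 6.36 to 11.4 FPKM on day 3, nearly all of it Krt8 and Krt18. Cdh1 and Epcam were at a mean of 3 counts or fewer over the 12 libraries. One library stood apart from its group. siCtrl day 1 replicate 3 differed from replicates 1 and 2 with a chi-square per gene of 50.6 and 30.8, against 4.14 to 15.8 for the other replicate pairs, so values that rest on it are also given without it.

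Of 3 siRNAs designed against PRMT1, the sources used here do not say which was given to the sequenced cells. All 3 are shown because off-target pairing of a siRNA runs through its seed, bases 2 to 8, given in capitals on the strand that pairs with the Prmt1 mRNA, 5′ to 3′.
siPRMT1-1: aAGAGAUGccgauugugaaacaugg
siPRMT1-2: uUGGCAUUgggccucauuccaaugg
siPRMT1-3: uUAUAUUGucgguccucaauggcug
Their 25-base sites lie in the coding sequence of Prmt1 on the minus strand of chromosome 7 (GRCm38), in exon 3 (chr7:44981826-44981850), exon 9 (chr7:44977511-44977535) and exon 6 (chr7:44978900-44978924) of transcript ENSMUST00000207370.1. The 7 bases that pair with the seed of siPRMT1-1 occurred in the longest transcript of Sdc1 (1 match), Sdc3 (3), Sdc4 (1) and Ptprz1 (2), and in 32.3% of 21877 genes. Those of siPRMT1-2 occurred in Ptn (1), Sdc2 (1), Sdc3 (1) and Ptprz1 (2), and in 25.3% of genes. Those of siPRMT1-3 were in no member and in 10.5% of genes. Such a match is a description of the letters and says nothing of a response.

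Pleiotrophin was the most abundant member in every group and the member with the widest spread between them. Its gene lies on the minus strand of chromosome 6, at chr6:36714924-36811361 (GRCm38), and no exon of another listed gene overlaps it. On day 1, Ptn stood at 639.5, 650.15 and 543 FPKM in the siCtrl libraries, a mean of 611 ± 58.9 FPKM (SD, n = 3). The siPRMT1 libraries of that day held 490.0, 487 and 462 FPKM, a mean of 480 ± 15.5 FPKM. All 3 siPRMT1 libraries were thus under the lowest siCtrl library, the replicate 3 that stood apart. By day 3, Ptn was at 109, 103 and 101 FPKM in siCtrl cells (105 ± 4.16 FPKM). In siPRMT1 cells of day 3 it was at 201, 199 and 188 FPKM (196 ± 7.29 FPKM). The groups again did not overlap, and the order of siCtrl and siPRMT1 was the opposite of that on day 1. By rank of FPKM among all genes of a library, Ptn was the 43rd to 61st in siCtrl and the 64th to 75th in siPRMT1 cells on day 1, then the 685th to 784th and the 291st to 307th on day 3. It took 0.151 to 0.181% of all counts in siCtrl cells on day 1 and 0.0282 to 0.0303% on day 3, with 0.128 to 0.136% and 0.0521 to 0.0558% in siPRMT1 cells.

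**Figure D1:**
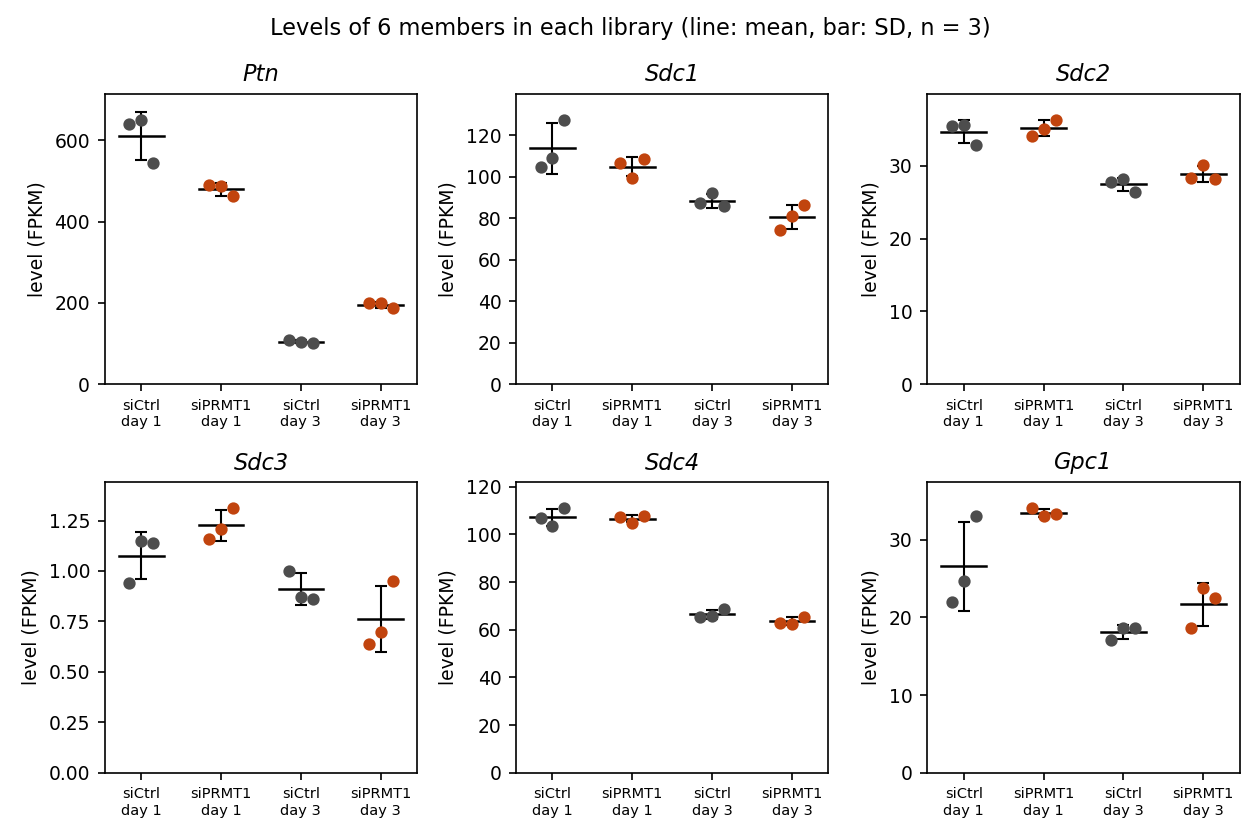
Level in FPKM (y axis, linear from 0) of Ptn, Sdc1, Sdc2, Sdc3, Sdc4 and Gpc1 in each of the 12 libraries, by siRNA and day (x axis). Points are libraries, lines are means and bars are SD over 3 libraries. Ptn falls from 611 to 105 FPKM in siCtrl and from 480 to 196 FPKM in siPRMT1 cells.

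The promoter window of Ptn is printed beside that of Sdc4 because these members had the largest and the next largest fall over the course in siCtrl cells. Each holds the 250 bases before the start site in RefSeq's annotation and the 50 bases from it on (GRCm38.p6), in the direction of the gene, and capitals mark matches to a motif. Windows were at hand for 5 of the 8 members, Ptn, Sdc1, Sdc3, Sdc4 and Ptprz1.
Ptn: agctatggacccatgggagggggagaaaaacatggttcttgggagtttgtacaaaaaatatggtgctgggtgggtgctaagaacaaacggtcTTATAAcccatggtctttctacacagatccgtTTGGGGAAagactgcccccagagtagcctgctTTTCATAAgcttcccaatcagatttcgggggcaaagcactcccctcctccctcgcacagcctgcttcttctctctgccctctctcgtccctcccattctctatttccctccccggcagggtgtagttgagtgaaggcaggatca
Sdc4: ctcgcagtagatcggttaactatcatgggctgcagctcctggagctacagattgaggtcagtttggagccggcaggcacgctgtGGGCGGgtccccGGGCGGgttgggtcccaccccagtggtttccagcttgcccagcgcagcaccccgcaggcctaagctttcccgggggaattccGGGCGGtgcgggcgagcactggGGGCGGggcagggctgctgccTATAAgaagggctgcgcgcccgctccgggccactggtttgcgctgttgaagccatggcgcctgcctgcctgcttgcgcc
The windows lie at chr6:36810130-36810429 (Ptn) and chr2:164443139-164443438 (Sdc4), both on the minus strand. The count table's Ptn gene reaches 36811361 and so has an exon upstream of this start. Motifs were searched on both strands of the 32851 promoters of this length. TTNNGNAA, a C/EBP-type element, matched the Ptn window at -126 and -94 from the start site and the Sdc1 window at -39. Of all promoters, 40.7% hold it. TATAA was found on both strands in overlapping letters from -158 in Ptn and from -11 in Sdc1. It was also at -29 in Sdc4, and 24.9% of promoters hold it. The Ptn window held no GC box (GGGCGG, in 35.7% of promoters), where the Sdc4 window held 4, and those of Sdc1 and Sdc3 held 3 each. The palindromic glucocorticoid element (0.475% of promoters) and TGACGTCA, the cAMP element (1.79%), were in none of the 5 windows. GC content was 52.0% in the Ptn window, near the median of 52.7% over all promoters, against 66.3 to 77.7% in the other 4 windows.

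Midkine and PTPRZ1, the other ligand and the phosphatase receptor, were at or near the limit of detection. Mdk had 10, 2 and 2 counts in the siCtrl libraries of day 1 and 7, 6 and 3 in siPRMT1, then 1, 2 and 4 counts in siCtrl and 8, 9 and 2 in siPRMT1 on day 3. That is 0.04 to 0.26 FPKM, with overlap between all groups. The exons of Mdk (chr2:91929805-91932297, minus strand) overlap Chrm4 and Gm39876 on the opposite strand, and the strand setting of the counting is not stated, so some of these few counts could be read from those genes. Chrm4 had 2 to 9 counts per library. Ptprz1 (chr6:22875457-23052916) had 1 count in 12 libraries, in siPRMT1 day 1 replicate 2. A count of 0 allows up to 3 counts in a library, or 0.0708 to 0.199 CPM at these depths. Both genes were under the filter on low counts, so 6 of the 8 members were tested.

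Among the membrane proteoglycans, syndecan 1 and syndecan 4 were the main mRNAs. Sdc1 (chr12:8771396-8793716), best known from epithelial and plasma cells, was at 104, 109 and 127 FPKM in siCtrl cells on day 1 and at 107, 99.45 and 108 FPKM in siPRMT1 cells. On day 3 it was at 87.4, 92.1 and 85.6 FPKM in siCtrl and at 74.5, 80.8 and 86.1 FPKM in siPRMT1 cells. The siRNA groups overlapped on both days, and every day 3 library was under every day 1 library. Sdc4 (chr2:164424247-164443188) was at 107, 104 and 111 FPKM in siCtrl cells and at 107, 105 and 108 FPKM in siPRMT1 cells on day 1. Its day 3 values were 65.4, 65.6 and 68.6 FPKM in siCtrl and 62.8, 62.4 and 65.5 FPKM in siPRMT1 cells. In FPKM the siRNA groups lay close together and overlapped on both days, while the days were far apart.

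Syndecan 2 (chr15:32920723-33034721), the syndecan of mesenchymal cells, was at 35.5, 35.6 and 32.9 FPKM in siCtrl cells on day 1 and at 34.1, 35.0 and 36.3 FPKM in siPRMT1 cells. By day 3 Sdc2 was at 27.7, 28.15 and 26.4 FPKM in siCtrl and at 28.3, 30.15 and 28.15 FPKM in siPRMT1 cells. Here too the siRNA groups overlapped on day 1, and on day 3 they met at 28.15 FPKM, while every day 3 library was under every day 1 library. Syndecan 3 (chr4:130792537-130826318), known as a pleiotrophin receptor of neurons, was by far the scarcest, at 0.94, 1.15 and 1.14 FPKM in siCtrl and 1.16, 1.21 and 1.31 FPKM in siPRMT1 cells on day 1. It had 1.0, 0.87 and 0.86 FPKM in siCtrl and 0.64, 0.70 and 0.95 FPKM in siPRMT1 cells on day 3. These rest on 70 to 212 counts per library, and the siPRMT1 libraries lay just above those of siCtrl in FPKM on day 1, overlapping after scaling for composition, and overlapped them on day 3. A row named Sdc3_1, with 5 counts over all libraries, was kept apart by the rule.

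Glypican 1 (chr1:92831686-92860211) was at 22.00, 24.7 and 33.0 FPKM in siCtrl cells on day 1, and at 34.0, 33.0 and 33.3 FPKM in siPRMT1 cells. The highest siCtrl value came from replicate 3, which equalled the lowest siPRMT1 library, and the other siCtrl libraries were lower. On day 3 Gpc1 was at 17.1, 18.6 and 18.6 FPKM in siCtrl and at 18.6, 23.8 and 22.5 FPKM in siPRMT1 cells, where the lowest siPRMT1 library lay within the siCtrl values.

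By FPKM the order was Ptn, Sdc1, Sdc4, Sdc2, Gpc1, Sdc3, Mdk and Ptprz1 in 3 of the 4 groups. In siPRMT1 cells on day 1, Sdc4 (107 ± 1.49 FPKM) came before Sdc1 (105 ± 4.75 FPKM). Sdc1 and Sdc4 overlapped on day 1 under both siRNAs, as did Sdc2 and Gpc1 in siCtrl cells on day 1, so these neighbours were not separated by their spread. The 4 syndecans summed to 256 ± 13.7 FPKM in siCtrl and 248 ± 6.67 FPKM in siPRMT1 cells on day 1, and to 183 ± 3.03 and 174 ± 7.25 FPKM on day 3. Sdc1 made up 44.2 ± 2.35% of this sum in siCtrl cells on day 1 and 48.2 ± 1.08% on day 3, and Sdc4 made up 41.8 ± 1.23% and 36.3 ± 1.36%. Sdc2 held 13.6 ± 1.29% and 15.0 ± 0.377%, and Sdc3 held 0.420 ± 0.0409% and 0.497 ± 0.0469%. In siPRMT1 cells the shares of Sdc1 and Sdc4 went from 42.3 ± 0.831% and 43.0 ± 0.576% to 46.3 ± 1.42% and 36.6 ± 1.02%. Between the days, Ptn fell further than the syndecan sum under both siRNAs. Ptn divided by the syndecan sum was 2.40 ± 0.346 in siCtrl and 1.94 ± 0.106 in siPRMT1 cells on day 1, and 0.571 ± 0.0271 and 1.13 ± 0.0864 on day 3 (SD, n = 3).

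**Figure D2:**
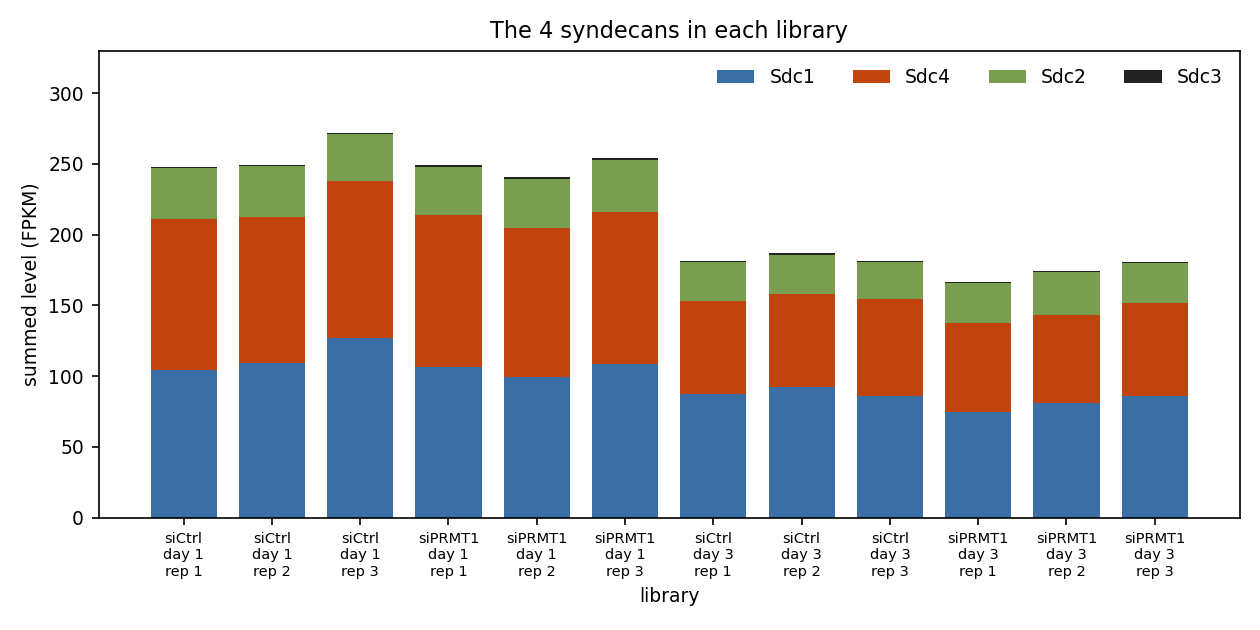
Level in FPKM of Sdc1, Sdc4, Sdc2 and Sdc3, stacked, in each of the 12 libraries (x axis, by siRNA, day and replicate). The day 1 bars reach 241 to 272 FPKM and the day 3 bars 166 to 187 FPKM, with Sdc1 and Sdc4 making up most of every bar.

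Knockdown on day 1 addresses early differentiation. None of the 6 tested members met the call, which takes a change of more than 0.5 on the log2 scale in either direction and an adjusted p under 0.05 in edgeR's quasi-likelihood test over 13689 genes. DESeq2 and limma also called 0. Only Ptn, 1 of the 6, had an unadjusted p under 0.05 in edgeR. Its adjusted p of 0.0223 was under 0.05 as well, so it missed the call on the size of its change alone. The background was 1.95% of genes called higher and 1.61% called lower. Ptn had a log2 fold change of -0.40 (SE 0.0783, 95% interval -0.58 to -0.22), or a 1.32-fold lower level, and -0.48 without siCtrl replicate 3. Without any other single library of that day, Ptn ran from -0.44 to -0.35, with adjusted p-values from 0.0601 to 0.121 in edgeR. Its groups and those of Sdc1 did not overlap after TMM scaling, a library scaling that evens out composition, as for 31.5% of all genes. With factors from all 12 libraries the Sdc4 groups did not overlap either, at 264 to 288 CPM (siCtrl) and 256 to 261 CPM (siPRMT1). The Sdc1 groups do overlap in FPKM, and its log2 fold change was -0.16 (-0.35 to 0.02), or -0.08 without siCtrl replicate 3. Gpc1 was at 0.28 (-0.01 to 0.58), and at 0.46 without that library, still under the threshold. Its adjusted p in edgeR was 0.221, and 1.9e-04 without that library. Without any other single library it was 0.382 to 0.473. Sdc2, Sdc3 and Sdc4 had log2 fold changes of -0.03 (-0.19 to 0.12), 0.15 (-0.13 to 0.44) and -0.06 (-0.19 to 0.07). For Sdc1, Sdc2, Sdc3 and Sdc4 the intervals exclude a change of 0.5 on the log2 scale in either direction, and those of Ptn and Gpc1 do not.

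On day 3, 1 of the 6 tested members met the call. Ptn was 1.87-fold higher in siPRMT1 than in siCtrl cells, a log2 fold change of 0.90 (SE 0.0670, 95% interval 0.76 to 1.04). Over the 14039 genes tested, 2.84% were called higher and 3.8% lower. With TMM factors from the 6 libraries of that day, Ptn was the only member whose groups did not overlap, against 34.9% of all genes. With factors from all 12 libraries, the Sdc1 groups did not overlap either, at 280.4 to 305 CPM in siCtrl and 243 to 279 CPM in siPRMT1 cells. The syndecans stayed within narrow limits, with log2 fold changes of -0.14 (-0.29 to 0.01) for Sdc1, 0.07 (-0.08 to 0.21) for Sdc2 and -0.07 (-0.21 to 0.07) for Sdc4. Sdc3 was at -0.25 (-0.58 to 0.08), and Gpc1 at 0.25 (0.07 to 0.43). The adipocyte and fibroblast marker sums given above also differ between siCtrl and siPRMT1 cells on this day, the former lower and the latter higher with siPRMT1, and their part in the Ptn difference was not tested. The markers within a list did not all move alike. All siPRMT1 libraries were under all siCtrl libraries for 5 of 6 adipocyte markers, with Fabp4 overlapping, and above them for 3 of 6 fibroblast and preadipocyte markers (Col3a1, Col1a2 and Pdgfra), with Col1a1, Thy1 and Dlk1 overlapping. On day 1 the adipocyte sum was lower with siPRMT1, as Ptn was, without overlap for 3 of 6 markers (Adipoq, Cebpa and Pparg). Of the fibroblast and preadipocyte markers, Col1a2 and Pdgfra were lower on day 1 without overlap, and the part of these was not tested either. In bulk libraries, fewer cells that express a gene and less of its mRNA per cell cannot be told apart.

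**Figure D3:**
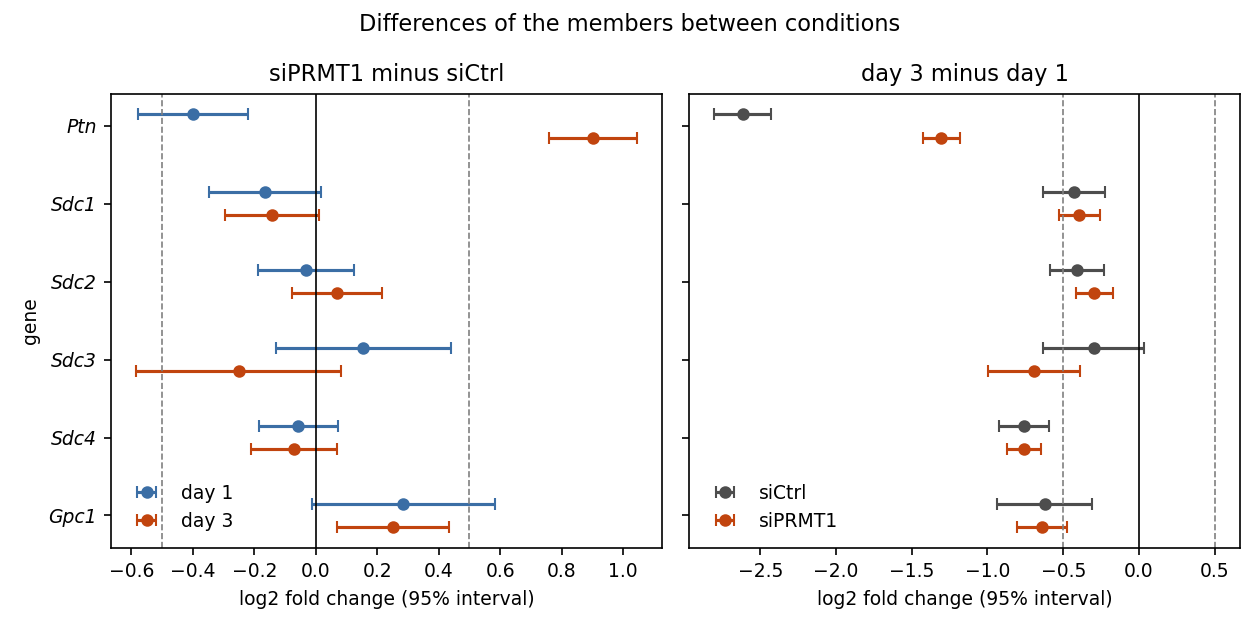
Log2 fold changes (x axis) of the 6 tested members (y axis) with 95% intervals, for siPRMT1 minus siCtrl on each day (left) and for day 3 minus day 1 under each siRNA (right). Dashed lines mark the 0.5 threshold. Ptn lies at -0.40 on day 1 and 0.90 on day 3, on opposite sides of 0.

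The interaction of siRNA and day asks whether the knockdown difference itself changed between the days. For Ptn it was 1.32 on the log2 scale (SE 0.0943, 95% interval 1.12 to 1.52), which met the call. Over all 14612 genes, 4.77% were called higher and 3.47% lower. No other tested member met the call. The estimates were 0.04 (-0.20 to 0.29) for Sdc1, 0.12 (-0.07 to 0.31) for Sdc2, -0.39 (-0.84 to 0.06) for Sdc3, 0.01 (-0.17 to 0.18) for Sdc4 and -0.01 (-0.39 to 0.37) for Gpc1. The signs for Sdc1, Sdc4 and Gpc1 depend on the scaling or on single libraries.

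From day 1 to day 3 all 6 tested members had lower mean levels under both siRNAs. These comparisons share their libraries with the knockdown comparisons. The fibroblast and preadipocyte sum was lower and the adipocyte sum higher on day 3 than on day 1, and their part in these falls was not tested. In siCtrl cells 3 of the 6 met the call, all lower. Ptn fell 6.13-fold (log2 fold change -2.62, SE 0.0836, 95% interval -2.80 to -2.43). Sdc4 fell 1.69-fold (-0.76, SE 0.0742, -0.92 to -0.59) and Gpc1 1.54-fold (-0.62, SE 0.141, -0.94 to -0.31). The Gpc1 call rests on siCtrl day 1 replicate 3, without which the change was -0.44 and not called, while Ptn was at -2.70 and Sdc4 at -0.74. Sdc1 (-0.43, -0.64 to -0.23) and Sdc2 (-0.41, -0.59 to -0.23) were lower by less than the threshold, and Sdc3 was at -0.30 (-0.63 to 0.03). Leaving out siCtrl day 1 replicate 1 or day 3 replicate 2 brought Sdc1 to -0.51 and -0.52, past the threshold. With each library left out in turn, Sdc1 ran from -0.52 to -0.35. Its highest siCtrl library of day 1 was replicate 3, the library that stood apart, at 127 FPKM. Groups did not overlap for 5 members. Over all 13829 genes, 22.7% were called higher, 20.4% lower and 64.4% had groups without overlap, so a fall between these days was common.

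In siPRMT1 cells 4 of the 6 members met the call, again all lower. Ptn fell 2.47-fold (log2 fold change -1.30, SE 0.0561, 95% interval -1.42 to -1.18). Sdc4 fell 1.69-fold (-0.76, SE 0.0534), Gpc1 1.56-fold (-0.64, SE 0.0759) and Sdc3 1.61-fold (-0.69, SE 0.141, -0.99 to -0.39). The Sdc3 call was lost with limma on log2(FPKM + 1) over genes of any level, at -0.34. Sdc1 was at -0.39 (-0.53 to -0.26) and Sdc2 at -0.30 (-0.42 to -0.17). The 2 values for Sdc4 are alike to 2 decimals, with an interaction interval of -0.17 to 0.18. All 6 members had groups without overlap, as did 66.6% of the 14224 genes, of which 19.0% were called higher and 17.4% lower.

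By Pearson's r of log2 CPM over the 12 libraries, among 12467 genes, the genes most like Ptn were Lox (0.999) and Pdp1 (0.998). Lox, a lysyl oxidase that cross-links collagen, had a mean of 156 ± 8.25 FPKM in siCtrl and 127 ± 6.60 FPKM in siPRMT1 cells on day 1. On day 3 Lox was at 27.0 ± 2.39 and 49.8 ± 2.57 FPKM, so it too was lower with siPRMT1 on day 1 and higher on day 3. Pdp1, a phosphatase of the pyruvate dehydrogenase complex, was at 27.6 ± 3.33 and 24.1 ± 0.620 FPKM and then at 6.12 ± 0.576 and 10.7 ± 0.436 FPKM. The nearest genes of the syndecans were Olfml2b (0.981) and Srebf2 (0.980) for Sdc1, Pbx3 (0.991) and Dnajb4 (0.984) for Sdc2, Skiv2l (0.938) and Rab4b (0.935) for Sdc3, and Kif2c (0.998) and Sipa1l2 (0.996) for Sdc4. All such values share the gap between the days and the same libraries, and they are given as a description.

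Around the members, 87 genes of the same pathway were listed by role, in 6 lists. Knockdown on day 1 called 1 of 66 tested genes higher (1.52%) and 3 lower (4.55%), against 1.95% and 1.61% of all genes. Among 11 tested receptors and binding partners of the ligands, Itgb3, the integrin beta 3 subunit, was lower (log2 fold change -0.58, SE 0.0790, adjusted p = 0.00647), from 13.8 to 9.57 FPKM. Of 9 heparan-sulfate-binding growth factors and their receptors, the FGF receptors Fgfr3 (-0.89, SE 0.120, adjusted p = 0.00634) and Fgfr2 (-0.53, SE 0.0691, adjusted p = 0.00577) were lower. Of 7 other heparan sulfate proteoglycans, Gpc2 was higher (0.91, SE 0.197, adjusted p = 0.0304) at a level of only 0.24 to 0.48 FPKM. None of 19 genes of chain synthesis, 7 of chain remodelling and syndecan shedding and 13 intracellular partners was called by edgeR, DESeq2 or limma, with an unadjusted p under 0.05 in edgeR for 5, 1 and 4 of them. These adjusted p-values come from edgeR's quasi-likelihood test over all genes. Without siPRMT1 day 1 replicate 3, the count of 4 called dropped to 1, with Itgb3 at an adjusted p of 0.0515 and Fgfr3 at 0.0511. Without siCtrl day 1 replicate 3, Fgfr2 was at -0.49. The Gpc2 call was lost without any 1 of the other 5 libraries, with adjusted p-values from 0.0841 to 0.135 in edgeR.

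On day 3, 4 of 65 tested pathway genes were called higher (6.15%) and 1 lower (1.54%), against 2.84% and 3.8% of all genes. Nrp1, a co-receptor of semaphorins and VEGF, was higher (0.52, SE 0.0735, adjusted p = 2.09e-04), as was Sulf2, which removes 6-O-sulfate from heparan sulfate outside the cell (0.55, SE 0.0830, adjusted p = 3.54e-04, edgeR). The growth factors Hgf (0.54, SE 0.0910, adjusted p = 8.88e-04) and Fgf7 (0.58, SE 0.110, adjusted p = 0.00221) were higher, from 3.42 to 4.99 and from 7.42 to 11.1 FPKM. The laminin receptor subunit Itga6 was lower (-0.55, SE 0.0676, adjusted p = 5.43e-05). Again 0 of 19 synthesis genes were called by edgeR, DESeq2 or limma, with 8 at an unadjusted p under 0.05 in edgeR. Without siCtrl day 3 replicate 3, 3 pathway genes were called in place of 5, with Nrp1 at 0.48 and Fgf7 at 0.45. Nrp1 was also at 0.48 without siCtrl day 3 replicate 2. For the interaction, 7 of 66 were called higher and 0 lower by edgeR, with 24 and 2 at an unadjusted p under 0.05, against 7 and 0 called by DESeq2. The 7 are 10.6% of the tested pathway genes, where 4.77% of all genes were called higher and 3.47% lower. The 7 were Fgfr3 (0.98), Sulf2 (0.75), Fgfr2 (0.60), Vcan (0.60), Sdcbp (0.58), Nrp1 (0.52) and Itgb1 (0.51). This count was 3 without siCtrl day 1 replicate 2 and 4 without siPRMT1 day 1 replicate 3.

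**Figure D4:**
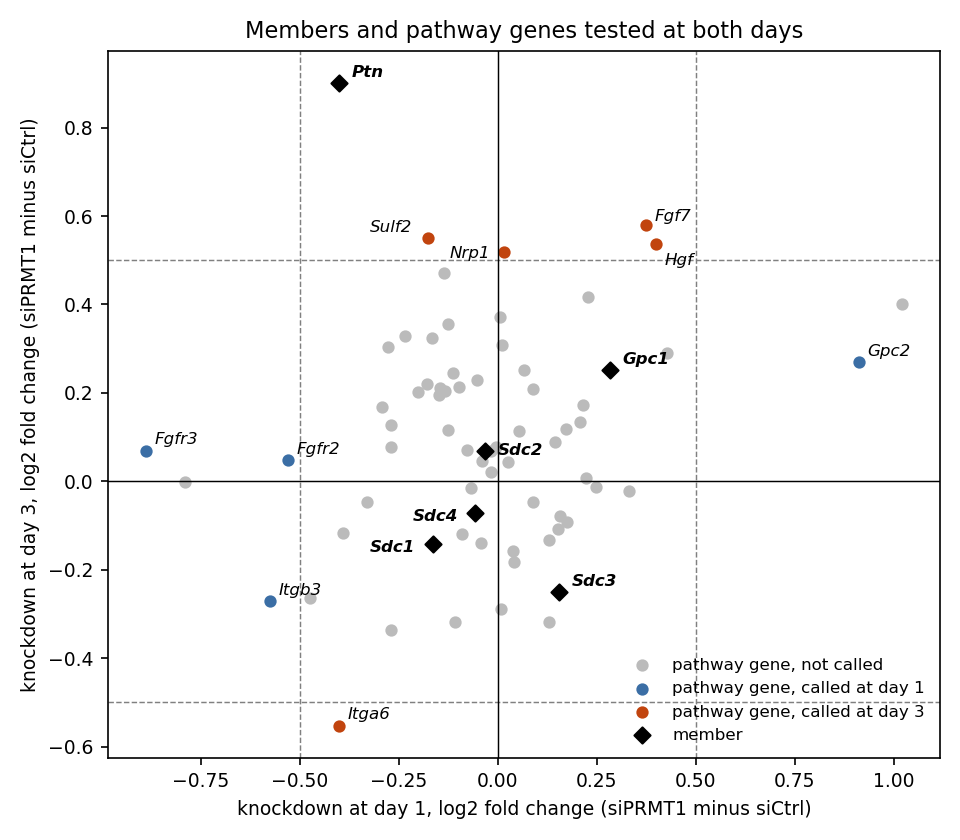
Log2 fold change of siPRMT1 against siCtrl on day 1 (x axis) and on day 3 (y axis) for the 65 pathway genes tested on both days (circles) and the 6 tested members (diamonds). Dashed lines mark the 0.5 threshold. Ptn (-0.40, 0.90) lies above all of the pathway genes, none of which was called on both days.

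Over the course in siCtrl cells, 7 of 64 tested pathway genes were called higher (10.9%) and 23 lower (35.9%), against 22.7% and 20.4% of all genes. The list of receptors and binding partners had 1 of 10 higher, Itga6 (1.49), and 5 lower, among them the endocytic receptor Lrp1 (-1.80), the chondroitin sulfate proteoglycan versican (Vcan, -1.87), Notch2 (-0.61) and Itgb1 (-0.60). Of the other heparan sulfate proteoglycans 4 of 7 were lower, namely Gpc6 (-1.64), Tgfbr3 (-1.52), Gpc2 (-1.20) and Agrn (-0.99). Chain synthesis was divided, with 3 of 19 higher, Papss2 (1.03), Extl3 (0.90) and Hs6st1 (0.78), and 3 lower, Ugdh (-1.02), Hs6st2 (-0.63) and Glce (-0.62). Of 6 tested genes of remodelling and shedding 5 were lower, with Timp3 (-2.27), Mmp9 (-1.72), Sulf2 (-1.21) and Adam10 (-0.98) as examples. Among 13 intracellular partners, the syntenin gene Sdcbp (-1.34), Fyn (-1.29), Prkca (-1.21) and Ctnnb1 (-0.56) were lower and Sdcbp2 (1.38) was higher. Fgf7 (-2.64) and Hgf (-2.54) fell about as far as Ptn, while the receptor Met (1.19) and Hbegf (0.78) rose. The Hbegf call was lost without replicate 1 or 2 of siCtrl day 1, or replicate 2 or 3 of siCtrl day 3 (adjusted p from 0.063 to 0.0811, edgeR). With limma on log2(FPKM + 1), Ctnnb1 was at -0.49 and not called, and over genes of any level Hs6st2 (-0.27), Gpc2 (-0.16) and Hbegf (0.40) were not called either. In siPRMT1 cells 9 of 65 were called higher (13.8%) and 19 lower (29.2%), against 19.0% and 17.4% of all genes. The median log2 fold change of the tested pathway genes was -0.37 in siCtrl and -0.11 in siPRMT1 cells, against -0.00417 and 0.00218 over all genes tested.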

How the data were processed

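The mRNA of siCtrl and siPRMT1 3T3-L1 cells was sequenced, with 3 libraries per siRNA and day. Trimming by the authors used cutadapt 1.11, mapping used HISAT2 2.1.0, and the submitters' processing notes also name RSEM 1.2.6 and mm10. The counting tool and its strand setting are not given in the sources used here. The deposited counts are whole reads per gene without normalization. The deposited FPKM values were checked to follow from these counts, the listed gene length in bases and each library's total, to within 0.005.

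Each comparison was fitted on the whole count table with edgeR 4.0.16 (R 4.3.3; filterByExpr, TMM, quasi-likelihood test), and p-values were adjusted by the Benjamini-Hochberg method. Calls took the thresholds of the study's methods, 0.05 on the adjusted p and 0.5 on the size of the log2 fold change. Dividing that size by the square root of F gave the standard error. FPKM gives levels. Members and lists were chosen with earlier results of these data known. Named pathway genes were the called genes with the smallest p of each list, at most 4 in each direction, in the knockdown comparisons and the siCtrl course, and 2 genes most correlated with Ptn and each syndecan. Genes named for the interaction are all those called. Depth was 15116462 to 42357137 counts, and limits from a count of 0 cover counting error only. Alternatives were DESeq2 1.42.0, RLE scaling, other filters, no fold threshold, a replicate block, 1 model of all 12 libraries, limma 3.58.1 on log2(FPKM + 1) or log2(FPKM + 0.1), each library left out, and levels as TPM or with TMM totals. On simulated counts with 200 genes changed by 1.5 (log2), the day 1 and day 3 knockdown fits recovered 197 and 200, with 13 and 6 false calls. The interaction fit recovered 190, with 10 false calls. That change is far over the 0.5 threshold, so the recovery of smaller changes was not tested.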

Additional observations from a re-analysis of the deposited data

Results flagged for a closer look

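Among the 6 tested members and 66 tested pathway genes, the knockdown difference of 8 differed between day 1 and day 3 by the interaction term of edgeR's quasi-likelihood test over 12 libraries, by more than 0.5 (day 3 minus day 1, log2) and with an adjusted p under 0.05. Over all 14612 genes, 697 were called higher and 507 lower by the same rule. Ptn differed by 1.32, from -0.40 on day 1 to 0.90 on day 3, and the 3 siPRMT1 libraries lay on opposite sides of siCtrl on these days. Among the pathway genes, Fgfr3 differed by 0.98 (from -0.89 to 0.07) and Fgfr2 by 0.60 (from -0.53 to 0.05), both called only on day 1 when each day was tested alone. Sulf2 differed by 0.75 (from -0.18 to 0.55) and Nrp1 by 0.52 (from 0.02 to 0.52). Vcan differed by 0.60 (from -0.28 to 0.30), Sdcbp by 0.58 (from -0.23 to 0.33) and Itgb1 by 0.51 (from -0.17 to 0.33), and none of these was called on either day alone. Leaving out single libraries ended the calls of Nrp1 (0.46 to 0.49 without replicate 1 or 2 of siCtrl day 1, replicate 3 of siPRMT1 day 1, or replicate 2 or 3 of siCtrl day 3), of Itgb1 (0.41 to 0.49 without any of these or replicate 1 of siPRMT1 day 3), of Vcan (0.49 and 0.55 without siCtrl day 1 replicate 2 or siPRMT1 day 1 replicate 3) and of Sdcbp (0.53 and 0.49 without siCtrl day 1 replicate 2 or siPRMT1 day 3 replicate 1). No cause was tested. Groups of 3 libraries are too small for a test of single outlying libraries.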

How the results depend on the processing

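The Ptn calls on day 3, in the interaction and in both courses were kept under all alternatives run. Without a fold threshold Ptn alone joined the members called on day 1 (1), 5 were called in the siCtrl course, and pathway counts were 8 (day 1), 20 (day 3), 16 (interaction) and 47 (siCtrl course). limma on log2(FPKM + 1), on log2(FPKM + 0.1) and without a filter on low FPKM called 1, 2 and 0 pathway genes on day 1, 4, 4 and 2 in the interaction, and the last called 3 on day 3. Gpc2 on day 1 was lost with DESeq2, and Itgb1 in the interaction with RLE and with at least 10 counts in every library (0.50 and 0.49, just under the threshold). With each library left out, pathway counts ran from 1 to 4 on day 1, from 3 to 7 on day 3 and from 3 to 8 in the interaction.

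Some estimates near 0 changed sign. Sdc2 on day 1 was 0.020 under the 3 limma fits. The interaction of Sdc1 was -0.026 under these fits and ran from -0.077 to 0.11 with each library left out. That of Sdc4 was -0.0059 with RLE, -0.011 with at least 10 counts in every library, -0.058 to -0.059 under limma, and -0.051 to 0.030 with libraries left out. That of Gpc1 was 0.036 without a filter and -0.23 to 0.11 with libraries left out. The cause was not tested.

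With TMM-scaled totals the siPRMT1 to siCtrl ratio of mean FPKM on day 1 was 0.743 for Ptn (0.785 as deposited), 0.913 for the syndecan sum (0.967) and 1.19 for Gpc1 (1.26). The day 3 to day 1 ratio in siCtrl cells was 0.163 for Ptn (0.171), 0.679 for the syndecan sum (0.715) and 0.647 for Gpc1 (0.682) with these totals, and 0.163, 0.679 and 0.649 as TPM. In siPRMT1 cells it was 0.385 for Ptn (0.409) and 0.661 for the syndecan sum (0.701) as TPM.

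Libraries share replicate numbers. Deviations from the group means correlated at -0.156 to 0.191 between same-numbered libraries of different groups and at -0.257 to 0.193 between differently numbered ones. These values cannot tell whether same-numbered libraries shared a culture or a batch. With the replicate block the counts of members called were 0, 1, 1, 3 and 4, and those of pathway genes 4, 5, 7, 30 and 28 (day 1, day 3, interaction, siCtrl and siPRMT1 course), the same as without it. Depth limits Mdk, Ptprz1 and, at 70 to 212 counts, Sdc3.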
